A study of Mus musculus with 2 samples.

Results

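In lungs of mice exposed to inhaled allergen, a part of the type 2 conventional dendritic cells (cDC2) carried transcripts of the lectin genes Cd209d and Cd209e. This population was selected on the measured counts themselves. Of 10901 barcodes in 6 count matrices, 10088 had at most 20% mitochondrial molecules, at most 20000 unique molecular identifiers (UMIs, each standing for a counted RNA molecule) and at least 500 genes. Of these, 1030 were gated as cDC2 by at least 3 UMIs of Cd209a, Mgl2 and Clec10a in sum. The gate also asked for under 3 UMIs of C1qa, C1qb and C1qc, no UMI of Fscn1, Xcr1 or Cd79a, under 10 UMIs per 10000 of the alveolar macrophage genes Chil3, Ear1 and Krt79, and under 20 per 10000 of 6 interferon response genes. Among the gated cDC2, 343 held at least 1 UMI of Cd209d or Cd209e and are called Cd209d/e cDC2 here, and the other 687 are the comparison cells.

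All animals were female C57BL/6J mice, and the methods of the study state that lungs of 8 animals were pooled, without saying whether for each treatment. The asthma mice were sensitized with intraperitoneal ovalbumin (OVA) in Alum, an aluminium adjuvant, and then challenged with OVA into the nose. The tolerance mice inhaled OVA before going through the asthma protocol, while controls were given the adjuvant with no OVA and saline into the nose, so that all 3 groups carried Alum. Cells sorted as dendritic cells (MHC-II high and CD11c high, negative for MerTK, CD64 and Ly6C) and as macrophages were labelled with a hashtag per treatment and a CLEC12A antibody tag, mixed in equal numbers and run on 2 lanes. The lanes are technical, so a treatment is represented by 1 pool and treatments could not be tested against each other.

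CD209 proteins, known in the mouse as SIGN-related receptors, are C-type lectins that bind sugars on microbes, allergens and glycoproteins and are found on dendritic cells and macrophages. The human genome has a small family of them, and the mouse genome has a larger one, which arose by gene duplication. cDC2 depend on the transcription factor IRF4, carry SIRPA and CD11b, and are known for driving T helper type 2 responses to inhaled allergen. CYP7B1 is an oxysterol hydroxylase that takes part in making the ligand of GPR183, a receptor that positions dendritic cells and lymphocytes in tissue.

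Cd209d (chr8:3871824-3878555) and Cd209e (chr8:3847965-3854309) are neighbours on the minus strand of mouse chromosome 8 (GRCm38, GENCODE M21), with 17514 bases between them. Cd209a (chr8:3743397-3748984), a gene of the cDC2 gate, and Cd209b (chr8:3917655-3926844) lie in the same cluster, which spans 183448 bases. Because near-identical copies could share reads, the annotated transcripts were cut into words of 56 bases. Of the 917 words of Cd209d and the 1747 words of Cd209e, 0 occurred in a transcript of another gene. Only exact matches were counted, so the sharing of reads between stretches that differ by single bases was not tested. The 300 bases around each start (250 before and 50 after, RefSeq, GRCm38.p6) are shown because both genes chose the cells. Capitals mark 2 motifs searched on both strands, GAGGAA, a core that PU.1-type factors can bind, and TTC and GAA with 4 bases between them, a spacing that STAT6 is known to bind.
Cd209d, chr8:3878450-3878749, minus strand: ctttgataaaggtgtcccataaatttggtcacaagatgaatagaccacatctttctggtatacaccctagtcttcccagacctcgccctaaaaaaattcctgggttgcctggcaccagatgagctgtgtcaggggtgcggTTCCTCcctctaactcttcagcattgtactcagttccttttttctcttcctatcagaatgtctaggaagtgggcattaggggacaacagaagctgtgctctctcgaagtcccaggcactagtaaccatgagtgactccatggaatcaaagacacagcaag
Cd209e, chr8:3854237-3854536, minus strand: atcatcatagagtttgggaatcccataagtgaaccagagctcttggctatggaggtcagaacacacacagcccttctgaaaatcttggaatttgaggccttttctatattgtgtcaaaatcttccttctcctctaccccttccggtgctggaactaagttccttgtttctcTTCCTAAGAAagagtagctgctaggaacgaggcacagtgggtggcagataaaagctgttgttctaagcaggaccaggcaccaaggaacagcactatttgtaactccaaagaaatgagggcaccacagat
The promoters matched at 178 of 275 aligned bases (64.7%), and that of Cd209d matched the Cd209a promoter at 169 of 223 aligned bases (75.8%). The Cd209d window held the PU.1-type letters at bases 141 to 146, as their reverse complement, and the Cd209e window held the STAT6-type letters at bases 172 to 181. Of 32851 promoter windows of this length, 28.3% held the PU.1-type and 6.95% the STAT6-type letters. The matches are a description of the sequence, since no binding was measured.

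The level of a gene is given in counts per 1000000 UMIs of a group of cells (CPM), with exact Poisson 95% intervals that cover counting error only. In Cd209d/e cDC2, Cd209d stood at 578 CPM (550.5 to 607) and Cd209e at 320 CPM (299.6 to 342), levels fixed by the selection. The lectin transcripts were set against other cells of the same lungs, gated on a few genes each. None of 221 cells gated on the cDC1 genes Xcr1 and Clec9a held a UMI of either lectin, which allows a share of up to 1.36%, although their median of 7833 UMIs matched the 7784 of the Cd209d/e cDC2. Among 511 cells gated on the B cell genes Cd79a, Cd79b and Ms4a1, and 135 gated on T cell genes, 0 held a lectin UMI, at lower median depths of 1910 and 2270 UMIs. Of 5080 cells with alveolar macrophage genes, at a median of 4909.5 UMIs, 0.295% did. The B cell, T cell and alveolar gates asked for no UMI of the 3 cDC2 genes, which also leaves out cells that hold free RNA of cDC2, so their shares give no background of free RNA. The gate on Xcr1 and Clec9a allowed up to 2 such UMIs, and its cells held 62 UMIs of Mgl2 beside 0 of Cd209d and Cd209e.

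Low levels were seen beyond the gate. Of 527 cells high in C1q that also met the lectin part of the cDC2 gate, 6.07% held a Cd209d or Cd209e UMI, with 10.2 CPM of Cd209d. Of 240 cells gated on Ccr7 and Fscn1, genes of mature migratory dendritic cells, 4.58% did, with 27.2 CPM of Cd209d. Among 44 cDC2 that failed the gate through their interferon genes the share was 18.2%. After thinning each cell to 2000 UMIs, so that depth was equal, the shares were 2.89% in the C1q-high cells, 3.03% in the Ccr7 and Fscn1 cells and 4.55% in the interferon-high cells. Cd209d/e cDC2 still held a lectin UMI in 63.1%. They were chosen for such a UMI, 100% holding it before thinning, so their share cannot be set against the others. In Cd209d/e cDC2, C1q-high, Ccr7 and Fscn1, and interferon-high cells 4, 8, 9 and 0 shallower cells were left out.

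**Figure D1:**
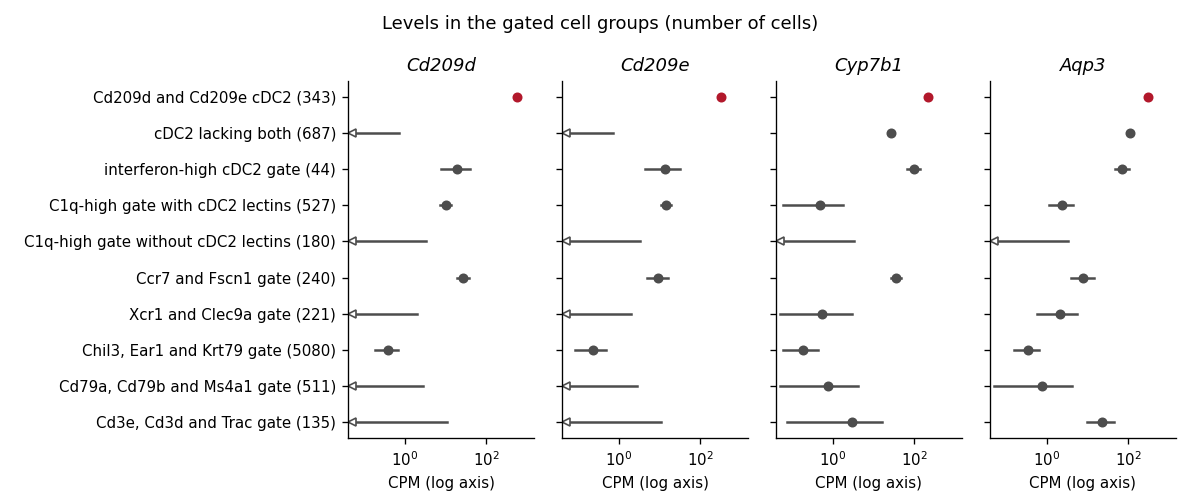
CPM (log axis) of Cd209d, Cd209e, Cyp7b1 and Aqp3 in 10 gated cell groups, with exact Poisson 95% intervals as lines, open triangles at the left edge for 0 UMIs, and the number of cells in brackets. Cd209d/e cDC2 (red) stand at the right end of all 4 panels, and for the lectins this was fixed by their selection.

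The cells matched the cDC2 label in the genes that the lectin gate did not use. Flt3, the growth factor receptor of dendritic cells, stood at 110 CPM, Zbtb46, a transcription factor of conventional dendritic cells, at 40.7 CPM and Irf4 at 84 CPM, while the C1q-high cells without cDC2 lectins had 0, 0 and 20.9 CPM of these genes. The macrophage genes Mertk and Csf1r were at 7.15 and 110 CPM, against 57.2 and 587 CPM in those C1q-high cells. Irf8, the factor of cDC1, was at 31.8 CPM against 1698 CPM in the Xcr1 and Clec9a cells, and Siglech, a gene of plasmacytoid dendritic cells, at 9.65 CPM. All 343 cells had their own treatment's hashtag as the most abundant of the 3. The authors had divided the cells into treatments by these hashtags, so this match was fixed beforehand and is no check of the cells.

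In the control pool 22 of 154 cDC2 belonged to them, 14.3% (exact 95% interval 9.17 to 20.8), in the asthma pool 212 of 549, 38.6% (34.5 to 42.8), and in the tolerance pool 109 of 327, 33.3% (28.2 to 38.7). These intervals cover counting error only, each treatment being 1 pool, and the difference between pools was not tested. Between the lanes of a pool the share differed little, at 13.3% and 15.2% in control, 38.4% and 38.8% in asthma and 34.8% and 31.9% in tolerance. As a share of all cells that passed the filters, they made up 0.654%, 5.27% and 4.04% of the control, asthma and tolerance pools, and these shares also depend on how dendritic cells and macrophages were mixed.

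The cDC2 of the control pool were shallower, with a median of 5580.5 UMIs against 7175 in asthma and 8171 in tolerance. With every cDC2 thinned to 3000 UMIs and 19, 35 and 13 shallower cells left out, the shares became 10.4%, 30.9% and 25.8%. When at least 2 lectin UMIs were asked for, 7 control cells, 154 asthma cells and 76 tolerance cells were left, 5.04%, 31.4% and 25.9% of the cDC2 in these counts. The order of control below the other pools was the same each time.

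**Figure D2:**
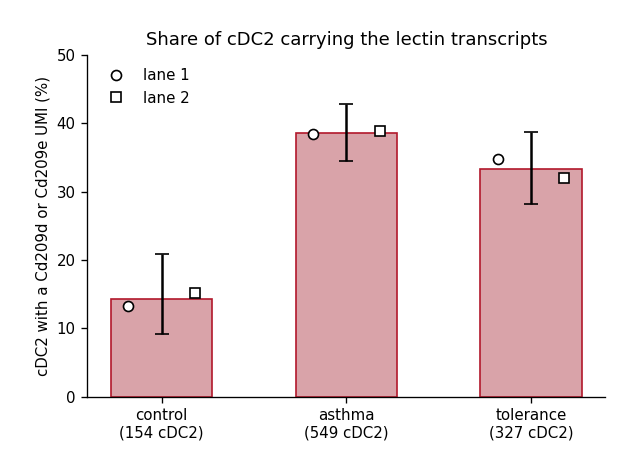
Share of gated cDC2 with at least 1 UMI of Cd209d or Cd209e (%, y axis) in the control, asthma and tolerance pools. Bars are the pools with exact 95% binomial intervals and open symbols are the technical lanes; the control pool lies at 14.3% and the allergen-exposed pools at 38.6% and 33.3%.

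The lectin UMIs themselves were uneven between cells and between pools. Of the 343 cells, 133 held Cd209d alone, 64 Cd209e alone and 146 both, and the number of lectin UMIs ran from 1, in 106 cells, to 75, with a median of 3. In the control pool 20 of 22 cells held Cd209d alone, and their 34 Cd209d UMIs compared with 2 of Cd209e. The asthma cells held 889 Cd209d and 643 Cd209e UMIs, and the tolerance cells 695 and 251. Cd209e was found in 52.3% of the cDC2 that held Cd209d and in 8.52% of those that did not, a description in which deeper cells count toward both.

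The cells just inside and just outside the gate were also counted. A lectin UMI was found in 10 of 50 cells with exactly 3 UMIs of Cd209a, Mgl2 and Clec10a and in 3 of 54 with 2 UMIs, which fell outside. At the C1q edge it was found in 10 of 29 cells with 2 C1q UMIs and in 1 of 10 with 3, and at the interferon edge in 11 of 44 cells just under and 3 of 18 just over the limit.

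Cd209d/e cDC2 and the comparison cells were first set side by side in the genes that gave the population its name. Cyp7b1 (chr3:18071950-18243338) was counted at 0, 224 and 256 CPM in the Cd209d/e cDC2 of the control, asthma and tolerance pools and at 6.53, 40.8 and 16.9 CPM in the comparison cells. The Cd209d/e cDC2 of both allergen pools lay above every other library, while the 22 control cells held no Cyp7b1 UMI. At their depth a count of 0 allows up to 22.3 CPM, so it shows no difference from the control comparison cells. The same limit holds for other genes given below at 0 in these control cells. Aqp3, a water and glycerol channel, stood at 29.7, 330.5 and 307 CPM against 28.7, 163 and 76.8 CPM, with near equal values in control. Both genes were picked from these data and carry no test.

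Ccl24, which encodes the eosinophil attractant eotaxin-2, did not follow its place among the named markers. It was counted at 0, 2236 and 386 CPM in Cd209d/e cDC2 and at 1.31, 2158 and 995 CPM in the comparison cells, so that the groups were close in asthma and the comparison cells were higher in tolerance. Cells high in C1q with cDC2 lectins held 2501 CPM. In both classes the level was higher in the allergen pools than in control, and it did not separate Cd209d/e cDC2 from the other cDC2.

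For the test, the cells of each class in a pool were added up over both lanes, giving 6 libraries that were compared with edgeR's quasi-likelihood test with the pool as a block and Benjamini-Hochberg adjustment over 8105 genes, without the genes of the gate. The libraries of Cd209d/e cDC2 held 134693, 1742822 and 920394 UMIs in control, asthma and tolerance. At an adjusted p under 0.05, 76 genes were higher (0.938% of those tested) and 134 lower (1.65%), against a median log2 fold change of -0.00 over all genes tested. An unadjusted p under 0.05 was reached by 12.6% of the genes. The counts from gene lists given below are to be read against these shares. Cyp7b1 and Aqp3 are among the 76, and 74 remain without them. In 145 of the 210 genes all 3 pools went the same way.

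The number of genes called depended on the pools and lanes. Of the 210 genes, 209 could be tested without the control pool and all 209 passed again, in a total of 261 higher and 298 lower. Without the asthma pool 4 and 5 genes passed, and without the tolerance pool 0 and 4 passed in edgeR with 147 higher and 291 lower at an unadjusted p under 0.05. With lane 1 alone 25 and 51 passed, and DESeq2 called 5 and 19. Of 87 named genes that passed in edgeR, 68 did not pass in DESeq2. Adjusted p values given below for single genes are from edgeR. In the fits without a pool every gene of the 210 that could be tested kept its direction. These fits reuse libraries that had called the genes, so a kept direction was likely beforehand and is no separate support. The gate was also set on a random part of the UMIs and the levels taken from the rest. This kept the UMIs that select a cell apart from those that give its levels. A deep cell is deep in both parts, so the split did not remove differences in depth. All 185 genes that could then be tested had the same direction and 141 passed. The cells chosen were a part of the same Cd209d/e cDC2, which made a kept direction likely. With comparison cells matched in depth, 201 could be tested, again with the same direction, and 73 passed.

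Plac8, a gene known from monocytes, plasmacytoid and precursor dendritic cells, stood at 171, 675 and 919 CPM in the Cd209d/e cDC2 of control, asthma and tolerance and at 132, 360.1 and 319.9 CPM in the comparison cells (log2 fold change 1.09 ± 0.15 SE, adjusted p = 0.00125), higher in all 3 pools. Tcf4, the transcription factor of plasmacytoid dendritic cells, stood at 59.4, 371 and 395 CPM against 138, 150.1 and 149 (1.08 ± 0.23, adjusted p = 0.0227). It was higher in both allergen pools and lower in the control pool. In the interferon-high cDC2 that failed the gate, Plac8 stood at 1114 CPM, above the 731 CPM of all Cd209d/e cDC2. Tcf4 stood there at 217 CPM against 364 CPM. A high level of Plac8 was thus not particular to Cd209d/e cDC2.

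The receptor tyrosine kinase gene Flt3 stood at 89.1, 106 and 121 CPM against 96.6, 66.9 and 50.7 (0.78 ± 0.17, adjusted p = 0.0279). Satb1, a chromatin organizer known from lymphocytes, rose by 1.57 ± 0.24 (adjusted p = 0.00288) and was higher in all 3 pools. Ccr9, a chemokine receptor known from gut-homing cells and plasmacytoid dendritic cells, was at 0, 25.2 and 38 CPM against 1.31, 5.71 and 9.27 CPM (2.04 ± 0.30, adjusted p = 0.00231). Of the 8 plasmacytoid genes listed, 4 could be tested, and Tcf4 and Ccr9 were the ones that passed in edgeR. In DESeq2 0 of them passed, with 1 higher at an unadjusted p under 0.05. The summed level of the 8 was 163, 764 and 859 CPM in Cd209d/e cDC2 and 313, 443 and 518 CPM in the comparison cells. Plac8 and Fn1 are also on a list of 15 monocyte genes, of which 10 were tested, 3 were higher and 1 lower in edgeR, and 1 higher and 1 lower in DESeq2. Their summed levels were 3972, 2559 and 3125 CPM against 3129, 3082 and 3288 CPM. The part of plasmacytoid cells and monocytes in these values was not tested, and cells with a Siglech UMI made up 3.21% of Cd209d/e cDC2 and 0.728% of the comparison cells (9.65 and 3.76 CPM).

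Further genes were chosen after their values were seen. Timd4 (chr11:46810800-46844332), which encodes the phosphatidylserine receptor TIM-4, stood at 0, 89.5 and 110 CPM in the Cd209d/e cDC2 and at 9.14, 13.9 and 4.91 CPM in the comparison cells (3.09 ± 0.33, adjusted p = 0.00023). It was also counted at 89.5 CPM in the Ccr7 and Fscn1 cells and at 53.9 CPM in the Xcr1 and Clec9a cells. Gimap1, a GTPase gene of lymphocytes, rose by 2.96 ± 0.36 (adjusted p = 0.000672), with 75 UMIs in the asthma Cd209d/e cDC2 and 12 in the asthma comparison cells. Cd7, a surface glycoprotein of T and NK cells, stood at 37.1, 127 and 125 CPM against 44.4, 51.0 and 37.1 (1.36 ± 0.19, adjusted p = 0.00122). The summed level of the 12 listed T and NK cell genes was 289.5 CPM in the control Cd209d/e cDC2 against 95.3 in the control comparison cells, and 79.2 and 68.4 against 75.4 and 87.7 CPM in asthma and tolerance. The part of T and NK cells was not tested.

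Il4i1, a secreted amino acid oxidase known from mature dendritic cells, stood at 14.8, 476 and 473 CPM against 45.7, 251 and 183 (1.03 ± 0.18, adjusted p = 0.00788). Kynu, an enzyme of the kynurenine pathway, stood at 52.0, 169 and 136 CPM against 41.8, 80.7 and 80.7 (0.89 ± 0.14, adjusted p = 0.0032). Fcgrt, the neonatal Fc receptor, stood at 200.5, 263 and 281 CPM against 178, 144 and 117 (0.89 ± 0.15, adjusted p = 0.00674), and Cd200r1, an inhibitory receptor, rose by 0.82 ± 0.14 (adjusted p = 0.00501). Kynu, Fcgrt and Cd200r1 were higher in each pool, while Il4i1 was so in asthma and tolerance. Over all Cd209d/e cDC2, Il4i1 stood at 453 CPM, against 508 CPM in the interferon-high cDC2 and 1764 CPM in the Ccr7 and Fscn1 cells. Fcgrt stood at 266 CPM, against 150 and 45.1 CPM in the same 2 groups. Further genes rose in all 3 pools and passed in the same direction in the fit on the split UMIs, where single pools were not looked at. They included Rgl1, Ptprcap, Adpgk, Cnp, Casp6 and Map4k1, with log2 fold changes between 0.72 and 1.42. For Rgl1 the control values rest on 5 UMIs in Cd209d/e cDC2 and 7 in the comparison cells.

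**Figure D3:**
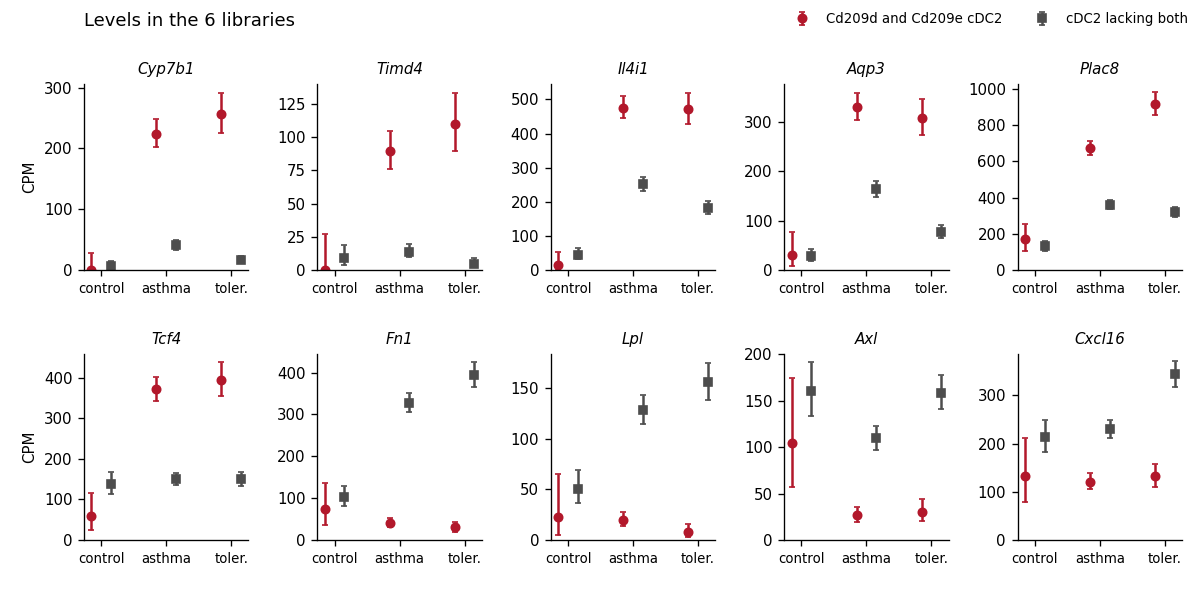
CPM of 10 genes in the 6 libraries, with exact Poisson 95% intervals, for Cd209d/e cDC2 (red circles) and cDC2 lacking both lectins (grey squares) in the control, asthma and tolerance (toler.) pools. In asthma and tolerance the upper 5 panels and Tcf4 are higher and Fn1, Lpl, Axl and Cxcl16 lower in Cd209d/e cDC2, while in control the intervals overlap for most genes.

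Of the genes lower in Cd209d/e cDC2, Fn1, encoding fibronectin, stood at 74.2, 40.7 and 30.4 CPM in the Cd209d/e cDC2 of control, asthma and tolerance and at 103, 328 and 395 CPM in the comparison cells, and fell by 3.06 ± 0.26 on the log2 scale (adjusted p = 3.39e-05). Lpl, the lipoprotein lipase, stood at 22.3, 19.5 and 7.61 CPM against 50.9, 128 and 156 and fell by 3.1 ± 0.25 (adjusted p = 2.65e-05). The libraries of asthma and tolerance were far apart for both genes, and those of control were close. 

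Spp1, encoding osteopontin, fell by 2.34 ± 0.28 (adjusted p = 0.000548), and Axl, a receptor for apoptotic cells, by 1.96 ± 0.21 (adjusted p = 0.000228), both in all 3 pools. The scavenger receptor gene Cd36 fell by 2.91 ± 0.38 (adjusted p = 0.000742), and the cystine transporter gene Slc7a11 by 3.07 ± 0.29 (adjusted p = 5.69e-05). F10, the gene of clotting factor X and outside the naming rule, was at 7.42, 20.7 and 28.2 CPM against 10.4, 105 and 152 (adjusted p = 1.88e-05). Of the 14 listed genes of interstitial macrophages 5 could be tested and 2 were lower, Cd63 among them. Their summed level was 111, 62.0 and 89.1 CPM in Cd209d/e cDC2 against 199, 167 and 240.4 CPM in the comparison cells, in which C1q genes were kept low by the gate. The part of macrophage-like cells or RNA among the comparison cells was not tested, and with no C1q UMI allowed 75 genes were higher and 125 lower.

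Of 19 listed chemokine genes, 12 could be tested, and 7 passed as lower and 0 as higher in edgeR (1 higher at an unadjusted p under 0.05), while 2 passed as lower and 0 as higher in DESeq2. The edgeR values had a median log2 fold change of -1.05 over the 12. Of all genes tested in edgeR, 0.938% passed as higher and 1.65% as lower. Cxcl16, the ligand of CXCR6, stood at 134, 121 and 133 CPM against 214, 230.0 and 343 and fell by 1.08 ± 0.14 (adjusted p = 0.000679). Ccl6 stood at 230.2, 71.7 and 115 CPM against 320.0, 305 and 317 and fell by 1.56 ± 0.20 (adjusted p = 0.000672). Ccl9 and Cxcl9 also passed, with higher values in the control Cd209d/e cDC2 than in the control comparison cells. Ccl17, a ligand of CCR4 on T helper type 2 cells, stood at 861, 2060 and 1894 CPM against 1333, 2540 and 2214 and fell by 0.36 ± 0.08 (adjusted p = 0.0227).

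Ccl22 and Ccr7 passed as lower, at -1.01 and -0.92, but their direction and that of Ccl17 rested on lane 2. In lane 1 Ccl22 stood at 90.7 CPM in the asthma and 144 CPM in the tolerance Cd209d/e cDC2 against 84.9 and 90.6 CPM in the comparison cells, and the fit on lane 1 alone gave 0.25 for Ccl22, 0.015 for Ccr7 and 0.13 for Ccl17. In lane 2 Ccl22 stood at 21.9 and 21.9 CPM against 162 and 115 CPM.

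Il1b, a cytokine of the IL-1 family, stood at 772, 997 and 869 CPM against 1818, 1422 and 1483 and fell by 0.80 ± 0.10 (adjusted p = 0.000791), with no overlap between the groups. Tnf fell by 1.36 ± 0.21 (adjusted p = 0.00265), Ptgs2, the inducible cyclooxygenase, by 1.52 ± 0.28 (adjusted p = 0.0105) and Il1rn, the antagonist of the IL-1 receptor, by 1.78 ± 0.22 (adjusted p = 0.000672). Of 12 listed genes of the IL-1 family and inflammasome 11 were tested and 2 were lower, with a median of -0.18, and of 19 genes that respond to TNF and NF-kB 2 were lower, with a median of -0.08. In DESeq2, 2 genes of the IL-1 list and 0 of the TNF and NF-kB list passed as lower. Over all genes tested in edgeR 1.65% were lower and 0.938% higher, and 12.6% had an unadjusted p under 0.05. Of 17 immediate-early genes, whose levels are known to respond to tissue digestion and handling, 17 were tested, 7 were lower and 0 higher in edgeR, with 0 higher at an unadjusted p under 0.05. In DESeq2 0 were lower and 0 higher, with 9 lower at an unadjusted p under 0.05, and in edgeR the median was -0.40. The tested genes of this list all had negative values, among them Dusp1 at -0.66 and Egr1 at -0.57. The part of handling in the lower values of Il1b and Tnf was not tested.

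No listed gene of antigen presentation passed, in a test that called few genes at all, 0.938% as higher and 1.65% as lower. Of 15 listed genes of MHC class II presentation 14 were tested, 0 passed in edgeR and in DESeq2, with 4 in edgeR and 0 in DESeq2 at an unadjusted p under 0.05, and the median was 0.03. Among all genes tested in edgeR, 12.6% had an unadjusted p under 0.05. H2-Ab1 stood at 13319, 11028 and 11419 CPM in Cd209d/e cDC2 and at 14094, 10713 and 10759 CPM in the comparison cells, with overlapping groups.

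Of 22 cDC2 identity genes 19 were tested. In edgeR Flt3, Cd33 and Tcf4 were higher, and Clec4a2, Csf1r and Itgax lower, with a median of -0.31. The shares over all genes tested in edgeR were 0.938% higher and 1.65% lower. DESeq2 called 0 of these genes higher and 0 lower, with 2 and 2 at an unadjusted p under 0.05. Irf4 stood at 59.4, 79.2 and 96.7 CPM against 56.2, 92.6 and 60.5, Sirpa at 245, 211 and 201 CPM against 178, 230.4 and 244, and Itgam at 163, 80.3 and 75 CPM against 171, 107 and 102. None of these 3 passed, with adjusted p of 0.842, 0.853 and 0.206 in edgeR. Irf8 fell by 0.94 ± 0.21 (adjusted p = 0.0313), from 34.0, 54.2 and 72.5 CPM in the comparison cells to 0, 34.4 and 31.5 CPM. Batf3, Id2, Zbtb46 and Fcgr1 did not pass, with adjusted p between 0.296 and 0.981 in edgeR.

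Among the other C-type lectins 14 of 21 were tested, with 1 higher and 2 lower in edgeR, where 0.938% and 1.65% of all genes tested were higher and lower. In DESeq2 0 were higher and 0 lower, with 2 and 3 at an unadjusted p under 0.05. Cd209b, the neighbour of Cd209d, stood at 141, 12 and 3.26 CPM against 27.4, 4.89 and 2.18 (1.73 ± 0.38, adjusted p = 0.0259), higher in each pool and most abundant in control. The lower ones were Clec4n, which encodes Dectin-2, a receptor for mite and fungal sugars, and Clec4b1, at -1.25 and -1.07. Cd209a itself, part of the gate and without a test, stood at 1507, 1453 and 1579 CPM in Cd209d/e cDC2 and at 1376, 602 and 432 CPM in the comparison cells. The values were close in control and did not overlap in the allergen pools.

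In the oxysterol pathway around Cyp7b1, Gpr183 stood at 52.0, 173 and 153 CPM against 81.0, 79.5 and 99.2 (0.76 ± 0.18, adjusted p = 0.034), higher in the allergen pools and lower in control. The interferon-high cDC2 held more Gpr183 than all Cd209d/e cDC2 together, at 217 against 161 CPM. They held less Cyp7b1, at 97.2 against 224 CPM. Ch25h, the enzyme that makes the substrate of CYP7B1, had 0, 3 and 1 UMIs in Cd209d/e cDC2 and was not tested. Of the 22 listed lipid and sterol genes 16 were tested, Gpr183 passed as higher and Lpl and Cd36 as lower, and the median was -0.01 with Cyp7b1, which is left out of the count because it was picked from these data. DESeq2 called 0 genes of this list higher and 2 lower. The cholesterol synthesis gene Sqle had a log2 fold change of 0.07 and did not pass (adjusted p = 0.932 in edgeR).

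Of 28 listed genes of cytokine receptors and JAK-STAT signalling 27 were tested. In edgeR 0 were higher (3 at an unadjusted p under 0.05) and Tgfbr1 and Csf2rb were lower, while DESeq2 called 0 higher and 0 lower (0 and 2 at an unadjusted p under 0.05). The edgeR values came with a median of -0.11. Over all genes tested in edgeR 0.938% were higher and 1.65% lower, and 12.6% had an unadjusted p under 0.05, so the 0 higher are near the share of all genes. Il4ra and Stat6, which carry the signal of IL-4 and IL-13, stood at 79.2 and 40.2 CPM in the asthma Cd209d/e cDC2 against 63.2 and 59.1 CPM, and neither passed. Of 21 cell division genes 3 were lower in edgeR, Ccnb2 by 1.29 ± 0.22 (adjusted p = 0.00554), and 0 in DESeq2 (3 at an unadjusted p under 0.05). At least 3 UMIs of 6 cycling genes were held by 10.8% of Cd209d/e cDC2 (7.71 to 14.6) against 16.7% of the comparison cells (14 to 19.7). The gap was wide in lane 1 (5.17% and 14.9%) and narrow in lane 2 (16.6% and 18.6%). With these cycling cells left out 36 genes were higher and 57 lower.

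**Figure D4:**
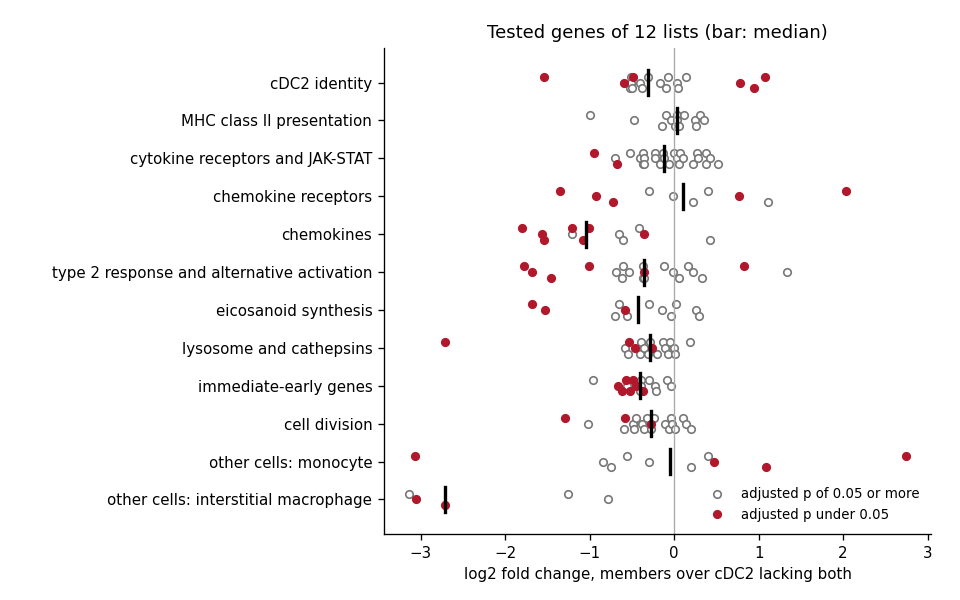
Log2 fold change of Cd209d/e cDC2 over cDC2 lacking both lectins (x axis) for the tested genes of 12 lists (rows). Filled points had an adjusted p under 0.05 in edgeR, open points did not, and the black bar is the median of the list; chemokines lie to the left with a median of -1.05 and MHC class II genes centre on 0.03.

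The cells were also divided by their number of lectin UMIs. In the asthma and tolerance pools together, 555 cDC2 held no lectin UMI, 91 held 1, 109 held 2 to 4 and 121 held 5 or more, with median depths of 7221, 7396, 7137 and 9085 UMIs. Cyp7b1 stood at 30.6, 59.4, 184 and 381 CPM along these classes. Timd4 was at 10.0, 34.8, 41.6 and 175 CPM and Plac8 at 343, 376, 438 and 1233 CPM, with the highest level of each in the cells richest in the lectins.

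The lower genes took another course. Fn1 stood at 357, 81.1, 42.8 and 6.19 CPM and Lpl at 140.4, 24.6, 25 and 2.65 CPM, lower in each class with a lectin UMI than in cells with none. H2-Ab1 stayed between 10732 and 11384 CPM. These classes share their pools and are a description without a test.

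**Figure D5:**
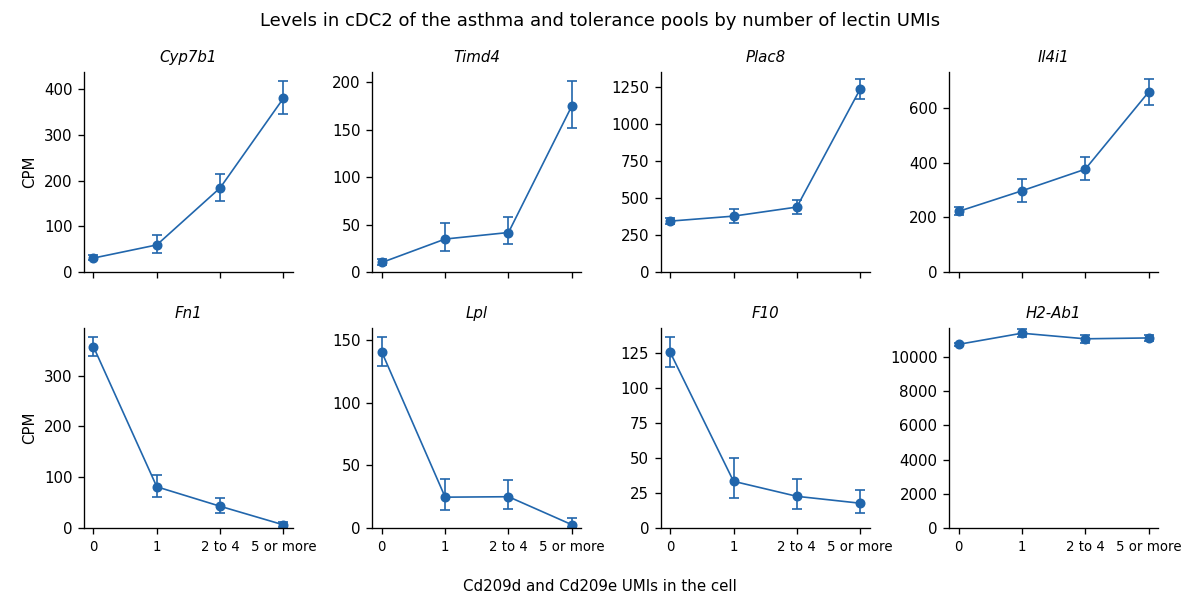
CPM of 8 genes (y axes from 0) in cDC2 of the asthma and tolerance pools, by the number of Cd209d and Cd209e UMIs in the cell (x axis), with exact Poisson 95% intervals. Cyp7b1, Timd4, Plac8 and Il4i1 rise along the classes, Fn1, Lpl and F10 are highest in cells with no lectin UMI, and H2-Ab1 stays between 10732 and 11384 CPM.

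Cells with both lectins differed from cells with either alone. In the asthma pool Cyp7b1 stood at 335 CPM (297 to 377) in 96 cells with both, 170.4 CPM (130.0 to 219) in 45 with Cd209e alone and 93.2 CPM (69.6 to 122) in 71 with Cd209d alone. In the tolerance pool the values were 430.2, 84.2 and 76.1 CPM in 49, 18 and 42 cells. Plac8 showed the same split, at 918 and 1489 CPM with both lectins and at most 486 CPM with either alone. Cells with both were deeper, with medians of 8457 and 9788 UMIs against 6430 to 8237, and the part of depth was not tested.

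Ccl24 did not keep this order. In asthma it stood at 3194 CPM with both lectins against 1288 with Cd209d alone and 1474 with Cd209e alone. In tolerance it stood at 159 CPM with both, 86.5 with Cd209d alone and 1539 in the 18 cells with Cd209e alone, which held 256 of the 355 Ccl24 UMIs.

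The genes most like the lectins were sought over 863 cDC2 of the asthma and tolerance pools, each thinned to 2000 UMIs, by Spearman correlation with the summed lectin UMIs over 4662 genes. Among the 10 highest were Cd209a (rho 0.37), Cyp7b1 (0.32), Il4i1 (0.28), Aqp3 (0.26), Fcgrt (0.25), Bcl11a (0.23), Tcf4 (0.23), Syngr2 (0.21) and Ms4a4c (0.20). Cd209d and Cd209e had a rho of 0.38 with each other. The cells share pools and lanes, their counts are sparse, and these values have no test. Bcl11a, a transcription factor of plasmacytoid dendritic and B cells, also passed the comparison of libraries, at 1.00 ± 0.19 (adjusted p = 0.0134), as did Ms4a4c at 0.65 ± 0.15 (adjusted p = 0.0323). Ms4a4c stood at 2228 CPM in the interferon-high cDC2 against 1019 CPM over all Cd209d/e cDC2, and Bcl11a at 100 against 270 CPM.

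Between the allergen treatments the Cd209d/e cDC2 were described without a test, as each was 1 pool. Of 5669 genes with at least 50 UMIs over both pools, 19 (0.335%) were at least 2-fold higher in asthma in the sum and in each lane, and 2 (0.0353%) in tolerance. Ccl24 stood at 2236 CPM in asthma (2166.4 to 2307) and 386 CPM in tolerance (347 to 428), a log2 ratio of 2.54 (2.26 and 2.80 in the lanes). The comparison cells of the same pools had a log2 ratio of 1.12. Ifi205, an interferon-inducible gene, was counted 48 times in asthma and 3 times in tolerance. Cxcl9, an interferon-induced chemokine, stood at 36.7 and 8.69 CPM, and its log2 ratio had the opposite sign in the comparison cells, at -1.17.

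Ccl3, an inflammatory chemokine, stood at 81.5 and 27.2 CPM with a like ratio in the comparison cells (log2 ratios of 1.58 and 1.45). Tgm2, a transglutaminase of alternatively activated cells, stood at 68.3 CPM in asthma (56.6 to 81.7) and 20.6 CPM in tolerance (12.4 to 32.2), a log2 ratio of 1.73. In the comparison cells its log2 ratio was 0.05, with 75.9 and 73.0 CPM. The other genes among the 10 largest ratios were Ncf4, Braf, Ddit3, 1600014C10Rik and Jdp2, with 45 to 84 UMIs in asthma and 8 to 14 in tolerance. In tolerance Cxcl10, a gene of the gate whose level the gate limits, stood at 50 against 17.8 CPM, and Chl1 at 36.9 against 13.8 CPM. Cyp7b1 and Aqp3 did not differ by 2-fold, at 224 and 256 CPM and 330.5 and 307 CPM in asthma and tolerance.

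The surface tag against CLEC12A, a C-type lectin receptor that senses uric acid crystals and dead cells, was counted in the same cells. The median was 62 tag UMIs in the control, 27.5 in the asthma and 25 in the tolerance Cd209d/e cDC2 and 63, 34 and 34 in the comparison cells. Per 10000 RNA UMIs the tag stood at 96.3, 47.1 and 38.1 against 112, 60.1 and 53.2, lower in Cd209d/e cDC2 in each pool and each lane. In lane 1 of control the median per cell went the other way, at 59 in Cd209d/e cDC2 against 55. Their median RNA depth was the higher one in each pool (7784 against 6835 UMIs over all cells). A value per RNA UMI also depends on that depth, and the part of depth was not tested. Clec12a transcripts stood at 141, 33.9 and 53.2 CPM against 185, 55.1 and 67.6 and did not pass (adjusted p = 0.13 in edgeR). With 3 pools an exact test of the tag could not reach a p of 0.05, so none was run.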

How the data were processed

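RNA was counted by droplet single-cell sequencing in lung cells of 3 pools of mice on 2 lanes. The deposited matrices hold raw UMI counts per gene and antibody tag, made by the authors. The submitters' processing notes name Cell Ranger 3.1.0, STAR, Seurat 3.1.5 and the build mm10. No barcode was shared between the 6 matrices. The gene floor of the study's methods is met by no barcode, and 500 genes were asked for instead. The members and gene lists were chosen with earlier results of these data known.

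The counts of each class in a pool were added up and compared with edgeR 4.0.16 (R 4.3.3; TMM, filterByExpr, quasi-likelihood test, pool as block, Benjamini-Hochberg, threshold 0.05), leaving out the genes of the gate. The 6 libraries leave 2 residual degrees of freedom. Fold changes are member over comparison cells, and lists are given by counts and medians. The ± is an approximate standard error (SE), the absolute log2 fold change divided by the square root of the quasi-likelihood F statistic. DESeq2 1.42.0, other gates, filters, scalings, single lanes and pools left out were alternatives. The fit was tested on simulated data. Genes were named when they passed, went one way in all 3 pools, passed again with split UMIs and had at least 20 CPM (up to 20 per direction), as up to 5 members of a list by size of change, as genes the study names for cDC2, among the 10 most like the lectins, or among the 10 largest ratios between asthma and tolerance. Timd4, Gimap1, Cd7, F10, Ccl17, Itgax, H2-Ab1, Ch25h, Sqle, Il4ra, Stat6, Mertk and Siglech were chosen after their values were seen. A few genes that the rule names are not reported here.

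Intervals are exact (Clopper-Pearson or Poisson, 95%) and cover counting error only, and a count of 0 was taken to allow 3 counts. Library depth ran from 134693 to 2452072 UMIs, so the control members are the least precise. Doublets were not removed beyond the gate: Scrublet (scanpy 1.11.5) marked 0.0585% and 0.484% of cells in the lanes, which is too few to use, so its highest 2% of scores were removed as an alternative. Promoters came from RefSeq and gene positions from GENCODE.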

Additional observations from a re-analysis of the deposited data

Results flagged for a closer look

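For 6 of the genes named here the Cd209d/e cDC2 differed from the comparison cells one way in the control pool and the other way in both allergen pools, in each of the 2 lanes. The difference between pools was not tested, since each treatment is 1 pool with technical lanes, and the control side rests on 22 cells. In the 15 of these cells with 1 lectin UMI, Tcf4 had 5 UMIs and Bcl11a had 4. Their intervals, 19.3 to 139 and 12.9 to 122 CPM, overlapped those of the control comparison cells, 113 to 167 and 71.3 to 115.5 CPM. The intervals over all 22 cells are narrower, so this overlap is shown for the 15 cells only. The lanes split the few control UMIs further and add little. The opposite direction in control is a description, and the part of counting error in it was not tested. For Tcf4, a regulator of plasmacytoid dendritic cells, the difference was -79.0 CPM in control, 221 in asthma and 246 in tolerance. The difference for Gpr183, the oxysterol receptor, was -29.0 CPM in control, 93.8 in asthma and 54.0 in tolerance. Bcl11a gave -39.4, 150.0 and 158 CPM, and Ms4a4c gave -57.0, 438 and 465 CPM in the same order. Clec4a2, an inhibitory lectin, went the other way with 36.2 CPM in control, -81.0 in asthma and -101 in tolerance, as did Csf2rb, a receptor chain for GM-CSF, with 14.9, -77.6 and -104 CPM.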

How the results depend on the processing

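The share of Cd209d/e cDC2 fell to 5.04%, 31.4% and 25.9% (control, asthma, tolerance) with 2 lectin UMIs, and to 30.9% in asthma and 25.8% in tolerance on thinned cells. Against 76 genes higher and 134 lower, the counts were 196 and 228 with 2 lectin UMIs (where control had too few cells and 2 pools remained), 33 and 42 with comparison cells matched in depth, 36 and 57 without cycling cells, 151 and 261 with no filter on low counts, and 5 and 19 in DESeq2 (93 and 157 at an unadjusted p under 0.05). Leaving out a lane or a pool gave 0 to 261 higher and 4 to 298 lower. Without lane 2 the counts were 25 and 51, without the control pool 261 and 298, without the asthma pool 4 and 5, and without the tolerance pool 0 and 4. Without the pool as a replicate block 0 and 0 genes were called, with 215 and 316 at an unadjusted p under 0.05. The higher share of calls moved from 36.2% to 46.2% with 2 lectin UMIs, 46.7% without the control pool and 20.8% in DESeq2.

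Every alternative reused counts that had called the 210 genes, so a kept direction is no separate support. Of the 210 genes, those that could be tested had the same direction in every alternative except without lane 2, where 186 of 189 did. There the log2 fold change of Ccl22 (0.25), the log2 fold change of Ccr7 (0.015) and the log2 fold change of Ccl17 (0.13) were reversed, against -2.73, -1.55 and -0.96 without lane 1, and the cause was not tested. Against 19 genes past 2-fold in asthma and 2 in tolerance, 9 were in tolerance with 2 lectin UMIs, 5 on thinned cells and 4 with no C1q UMI. Leaving out a lane gave 34 to 54 and 16 to 18, where only 1 lane had to pass. A floor of 20 UMIs gave 89 and 37, and one of 100 UMIs gave 6 and 0. Depth limits the control pool most, with 134693 UMIs in its 22 cells.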
